A study of Mus musculus with 10 samples.

Results

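The cytosolic ribosomal protein genes encode the proteins of the large and the small ribosomal subunit. They were chosen by symbol: protein-coding genes whose names begin with Rpl, Rps or Rplp followed by a digit, plus Rpsa, without the ribosomal S6 kinase genes and without genes that carry only a Gm number. The rule found 90 of the 17606 genes in the data, 55 named for the large subunit and 35 for the small. Of the 90, 77 are the standard subunit genes (46 large, 31 small), and the other 13 are paralogs, retrogenes and pseudogene-like copies, together with Rps19bp1, which encodes a partner of the ribosomal protein Rps19 and not a subunit.

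RNA sequencing was done on 10 libraries of sorted cells from wild-type female C3H/HeN mice that had been injected with SCC7 cells, a tumor line derived from a mouse squamous cell carcinoma; the labels give HNSCC as the disease state. The cells are labelled EPC, an abbreviation that the labels do not spell out, and were sorted by flow cytometry into 3 groups: splenic CD45- cells (S_CD45-, n = 3), splenic CD45+ cells (S_CD45+, n = 3) and tumor CD45+ cells (T_CD45+, n = 4). CD45 is the common surface protein of white blood cells, which red cell precursors lose as they mature. S_CD45+ against S_CD45- compares the CD45 gates within the spleen, T_CD45+ against S_CD45+ compares tumor with spleen within the CD45+ gate, and in T_CD45+ against S_CD45- tissue and gate differ together and cannot be told apart. No label states that libraries of a group come from separate mice, so the tests measure the spread between these libraries, which may be technical.

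Ribosomes are built in the nucleolus: RNA polymerase I makes the precursor of most ribosomal RNA, assembly factors process it, and the ribosomal proteins are imported from the cytoplasm and added in a set order, nearly all of them as 1 copy per ribosome. Messages of ribosomal proteins belong to the most abundant in most growing cells and start with a short run of C and T bases, the 5′ terminal oligopyrimidine tract, through which the TOR pathway and the protein Larp1 control their translation. Red cell precursors depend on a high supply of ribosomes for globin synthesis, and inherited loss of 1 copy of several of these genes, Rps19 among them, causes Diamond-Blackfan anemia.

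Values are FPKM, fragment counts divided by transcript length and by the library's total, summed over the transcript models of each gene. The fragment numbers implied by the low values were 17700000 to 20900000 per library. The number of genes at 1 FPKM or more was 7852 to 7960 in S_CD45-, 9828 to 10890 in S_CD45+ and 10729 to 10946 in T_CD45+. The summed value of 10 erythroid marker genes was 12285 to 12908 FPKM in S_CD45-, 6736 to 7392 in S_CD45+ and 58.6 to 244 in T_CD45+, where 4 of the 10 reached 1 FPKM in any library. The 10 monocyte and macrophage markers summed to 63.1 to 116, 1392 to 4327 and 24096 to 45565 FPKM in the same order, and 6 epithelial markers summed to 312 to 406 FPKM in T_CD45+ against at most 2.84 in the spleen. The 11 granulocyte markers summed to 391 to 525 FPKM in S_CD45-, 23153 to 77784 in S_CD45+ and 39.0 to 1745 in T_CD45+. B cell markers summed to 25.5 to 32.5, 147.5 to 1357 and 47.7 to 54.9 FPKM, and T and NK cell markers to 19.6 to 19.9, 57.2 to 341 and 5.64 to 41.4 FPKM. Megakaryocyte and platelet markers summed to 34.4 to 37.3, 20.1 to 29.5 and 600.2 to 873 FPKM, and stroma markers to 139 to 198 FPKM in T_CD45+ against at most 2.00 in the spleen. In T_CD45+, 2 of the 6 megakaryocyte and platelet markers and 3 of the 6 epithelial markers reached 1 FPKM in any library. So did 3 of the 8 B cell, 5 of the 10 T and NK cell and 6 of the 6 stroma markers. The cell cycle markers summed to 4025 to 4572, 1971 to 4774 and 741 to 769 FPKM. These lists moved with the groups, and their part in the results below was not tested. In a sorted population, fewer cells of a type and less RNA per cell cannot be told apart.

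A few libraries stood apart. In S_CD45+, replicate 2 had a B cell marker sum of 147.5 FPKM against 1357 and 1207 FPKM in the others and a cell cycle sum of 4774 FPKM against 1971 and 2301. Replicate 3 of S_CD45+ had a granulocyte marker sum of 77784 FPKM against 23153 and 32378 and the highest globin share of its group, 52.2%. In T_CD45+, replicate 1 held 10.4% of its summed FPKM in globin genes against 1.80 to 1.87% in the others and a granulocyte marker sum of 1745 FPKM against 39.0 to 44.7. Replicates 2 and 3 of T_CD45+ differed hardly more than counting noise: the median squared difference over 1234 genes was 1.24 times the counting noise, against 2.23 and 2.03 times between each of them and replicate 4 and 2.74 to 99.6 times between all other pairs of a group. They were kept as separate libraries, and the counts of members called with them averaged are given for both tumor comparisons.

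Stretches near the annotated starts are shown here for the members whose level moved most within the family between T_CD45+ and S_CD45-. They are the 4 lowest and the 4 highest among standard subunit genes with an entry in the RefSeq promoter table (GRCm38.p6). Each line gives 30 bases on the coding strand, 5′ to 3′, and capitals mark the longest run of C or T within 50 bases of the annotated start.
Rplp0: ccgcctggTTCTCCTataaaaggcacacgc
Rpl41: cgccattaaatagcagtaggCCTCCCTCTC
Rpsa: aagttctcCCTTTTTgcttagcctgctttg
Rps3a1: agacggcgCTCCCCgcccggctcgcgttaa
Rpl10: cgtgagcaggcgtgggagcgTCTCTTTTCC
Rpl38: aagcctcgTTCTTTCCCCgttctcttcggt
Rps6: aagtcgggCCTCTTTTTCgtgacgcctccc
Rpl37: cgggggtgCTTTCTCTTCCggtctctttgg
The stretches lie at chr5:115559470-115559499 on the + strand for Rplp0, chr10:128549119-128549148 on the - strand for Rpl41, chr9:120127708-120127737 on the + strand for Rpsa and chr3:86142619-86142648 on the - strand for Rps3a1. Those of the 4 highest lie at chrX:74270836-74270865 on the + strand for Rpl10, chr11:114668570-114668599 on the + strand for Rpl38, chr4:86857347-86857376 on the - strand for Rps6 and chr15:5116633-5116662 on the + strand for Rpl37. In Rpl38 and Rps6 the run spans the annotated start. In Rplp0, Rps3a1, Rpl37, Rpl41 and Rpl10 it begins after the start, at bases 12, 29, 29, 41 and 41. In Rpl41 and Rpl10 it ends at the edge of the stored sequence and may go on. In Rpsa it lies before the start and is cut at the edge of the 50-base window, with more C and T bases ahead of it. Outside Rpl38 and Rps6, the capitals are thus not the first bases of the annotated message. The start used for Rpl38 is that of its promoter entry. The annotated span of this gene, chr11:114667818-114672333, begins upstream of the stretch shown, so the statement on Rpl38 holds for that start only.

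Promoter sequences were matched for 69 of the 90 genes, 57 of them standard subunit genes. A run of at least 10 C or T bases within 50 bases of the start, on the coding strand, was present in 39 of the 57 (68.4%) against 17.8% of 17491 protein-coding promoters. The letters CTCTTTC in the same window were found in 19.3% of the 57 and in 1.24% of all. CGGAAG, the core letters bound by Ets factors such as GABPA, was found on either strand of the 300 bases in 70.2% against 21.5%, and TATAAA in 8.77% against 13.3%. A match is a description of letters and no evidence of binding. The median log2 change in T_CD45+ against S_CD45- was 0.76 for the 39 genes with the run and 0.84 for the 18 without it. In T_CD45+ against S_CD45+ the medians were 0.56 and 0.38, and in S_CD45+ against S_CD45- they were 0.27 and 0.25.

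All 77 standard subunit genes were at 1 FPKM or more in every library, and 74 were at 100 FPKM or more in every library. Their median level, taken over the group means, was 1370 FPKM in S_CD45-, 1726 in S_CD45+ and 2184 in T_CD45+. Ranked by level, 54, 60 and 55 of them were among the 100 highest genes of S_CD45-, S_CD45+ and T_CD45+. The highest was Rpl41, which encodes the smallest subunit protein, in both splenic groups (5094 and 4154 FPKM), and Rpl35, at the exit of the nascent chain, in T_CD45+ (6389 FPKM). The 3 below 100 FPKM in some library, chosen after their values were seen, were Rps6 (11.8 to 38.5 FPKM over the 10 libraries), Rps15a (70.1 to 173 FPKM) and Rpl22 (94.5 to 239 FPKM). FPKM are divided by transcript length, and the lengths known for these were 878, 5179 and 2051 bases. Over the 77 genes the lengths were 345 to 5179 bases. The part of length in their levels was not tested. Ribosomal protein genes have many near-identical processed copies in the genome. The sources used here do not say how the authors' counting shared reads among these. Levels compared between members, and the changes of members as low as Rps6, are therefore uncertain.

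The 90 genes together made up 9.13, 8.02 and 9.77% of the summed FPKM in the S_CD45- libraries, 13.3, 18.4 and 9.81% in S_CD45+ and 23.9, 23.1, 22.8 and 23.4% in T_CD45+. The means were 8.97% ± 0.888 (SD, n = 3), 13.8% ± 4.31 (SD, n = 3) and 23.3% ± 0.444 (SD, n = 4), and every S_CD45+ library lay above every S_CD45- library and below every T_CD45+ library. Globin genes, the main messages of late red cell precursors, took 62.5 to 63.5% of the summed FPKM in S_CD45-, 29.4 to 52.2% in S_CD45+ and 1.80 to 10.4% in T_CD45+. With the 12 globin genes left out of the total, the ribosomal protein share was 25.0, 21.4 and 26.1% in S_CD45-, 23.1, 26.0 and 20.5% in S_CD45+ and 26.7, 23.6, 23.2 and 23.8% in T_CD45+. The 3 groups then overlapped, with means of 24.2% ± 2.47 (SD, n = 3), 23.2% ± 2.76 (SD, n = 3) and 24.3% ± 1.57 (SD, n = 4). As a share of fragments, which weights each transcript model by its length, the means were 8.82, 9.98 and 12.8% with globins in the total. They were 11.8, 11.5 and 12.9% without globins. Lengths were known for 24850 of 61685 models and 86 of the 90 genes, and the others were left out of these shares.

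**Figure D1:**
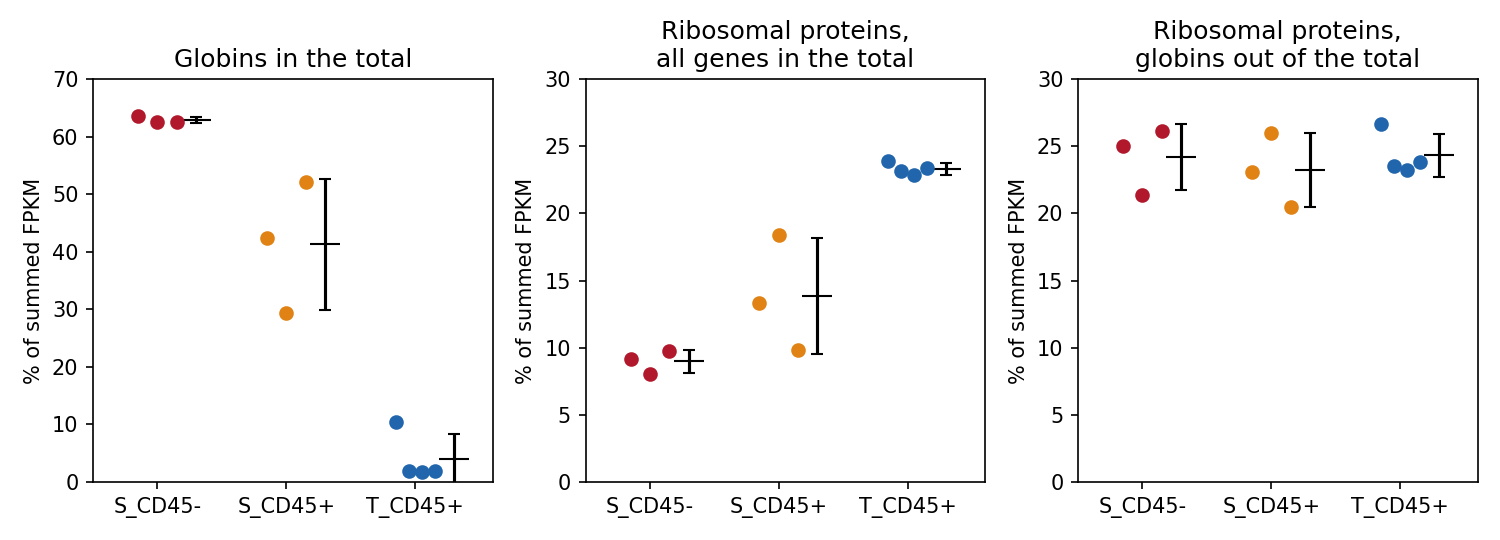
Share of the summed FPKM held by globin genes (left) and by the 90 ribosomal protein genes with all genes in the total (middle) or with globins left out (right), in percent; points are libraries, and bars are the group mean ± SD. The ribosomal protein share runs from 8.02% to 23.9% with globins in the total and from 20.5% to 26.7%, with overlapping groups, without them.

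Within the spleen, CD45+ cells had higher FPKM than CD45- cells for a minority of the family. By limma with Benjamini-Hochberg adjustment over all 9728 genes tested, 14 of the 86 members that passed the filter on low values rose and none fell at adjusted p below 0.05. Over all genes tested 50.5% rose and 5.01% fell, so the members' share of rises was below that background. The median log2 change was 0.26 for the members and 0.67 for all genes. Rps13, a small subunit protein, was at 499.5, 463 and 474 FPKM in S_CD45- and 1007, 1089 and 820 FPKM in S_CD45+, a log2 change of 1.01 ± 0.18 (SE, limma adjusted p = 0.00336). Every S_CD45+ library lay above every S_CD45- library for this gene. Rpl7l1, a nucleolar paralog of Rpl7, rose by 0.93 on the log2 scale from a low level (17.4 to 34.7 FPKM on average). Rps6, whose protein is the substrate of S6 kinase, rose by 0.88 from a still lower level (12.3 to 23.9 FPKM on average). Rpl4, which reaches into the exit tunnel, rose by 0.78. The calls for Rpl7l1 and Rps6 were lost without S_CD45- replicate 3, and that for Rps6 also without replicate 2. The calls for these 4 genes were lost under trimmed-mean and median-ratio scaling, where Rpl4 and Rps6 changed sign.

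The number of calls rested on the scaling and on single libraries. With globins out of the total 5 members rose and 2 fell (background 41.3 and 9.14%), and the members' median log2 change was 0.00 against 0.45 for all genes. With scaling by a trimmed mean or by the median ratio to a reference, none rose and 32 or 49 fell, with a member median of -0.67 under both. The background was then 26.5% higher and 24.3% lower, or 26.3% higher and 30% lower. Without S_CD45- replicate 1, 2 or 3, or S_CD45+ replicate 1, the count as deposited was 6, 4, 5 or 6 higher. Over all genes it was then 3766 of 9704, 3910 of 9696, 3837 of 9703 or 2741 of 8102. Without S_CD45+ replicate 2, 5 members fell, against 1418 of 8105 genes.

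Between the CD45+ populations, most of the family was higher in the tumor as deposited. Of the 86 members, 54 rose and none fell in T_CD45+ against S_CD45+ (limma, 11463 genes tested), where the background was 37.7% higher and 26% lower. The median log2 change was 0.57 for the members and 0.20 for all genes. A scaling moves the members and all genes together: the 2 medians were 0.10 and -0.20 with globins left out and 0.83 and 0.44 with all libraries scaled to a common sum. Rpl37 had the largest rise, with 513, 685 and 499.9 FPKM in S_CD45+ and 1498, 1185, 1204 and 1373 FPKM in T_CD45+, a log2 change of 1.22 ± 0.18 (SE, limma adjusted p = 0.000607). Every tumor library lay above every splenic one for this gene. Rpl30 rose by 0.97 and Rpl38, a large subunit protein known for selective translation in the embryo, by 0.97 on the log2 scale.

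This count also depended on the total and on the libraries. With globins out of the total 8 members rose and 3 fell (background 26 and 37.3%), and with trimmed-mean or median-ratio scaling 13 or 23 rose and none fell. The background under these was 34% higher and 29.7% lower, or 34.5% higher and 29.9% lower. The members' share of rises was below it. Their median log2 changes under these 2 scalings were 0.41 and 0.42, above the 0.062 and 0.076 of all genes. Leaving out S_CD45+ replicate 1 or 3 gave 28 or 26 members higher, against 4521 of 10992 or 3954 of 10998 genes tested. With T_CD45+ replicates 2, 3 and 4 averaged to 1 sample 11 members were higher, against 2905 of 11463 genes. In each of these settings the members' share of rises was below that of all genes, unlike with all libraries as deposited. With replicates 2 and 3 averaged 40 members were higher (3847 of 11463 genes). Without S_CD45+ replicate 2 and T_CD45+ replicate 1 together it was 76 (5191 of 10938 genes).

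In T_CD45+ against S_CD45-, where tissue and gate differ together, 80 of the 86 members rose and 1 fell, against a background of 67.5% higher and 22.5% lower among 11208 genes. The member median of 0.81 lay below the 1.06 of all genes. The rises among subunit genes included Rpl10, among the last large subunit proteins to join (1.60 ± 0.10, limma adjusted p = 4.33e-07), and Rpl30 (1.56 ± 0.17, limma adjusted p = 1.57e-05), each a log2 change ± SE. With globins out of the total 24 members rose and 12 fell (background 54 and 33.8%), and trimmed-mean or median-ratio scaling gave 3 or 6 higher and 44 or 30 lower, with a background of 46.7 or 48.3% higher and 43.7 or 41.6% lower. With T_CD45+ replicates 2 and 3 averaged 79 members rose and 1 fell, and with replicates 2, 3 and 4 averaged 75 rose and none fell. So the direction of the family as a whole in this comparison followed the scaling. By order of group means as deposited, 66 of the 77 standard genes were lowest in S_CD45- and highest in T_CD45+. A further 8 were lowest in S_CD45+ and highest in T_CD45+, and 2 were highest in S_CD45+. The last, Rplp0, was highest in S_CD45- and lowest in T_CD45+. This order was not counted over all genes, of which 67.5% rose in T_CD45+ against S_CD45- as deposited.

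**Figure D2:**
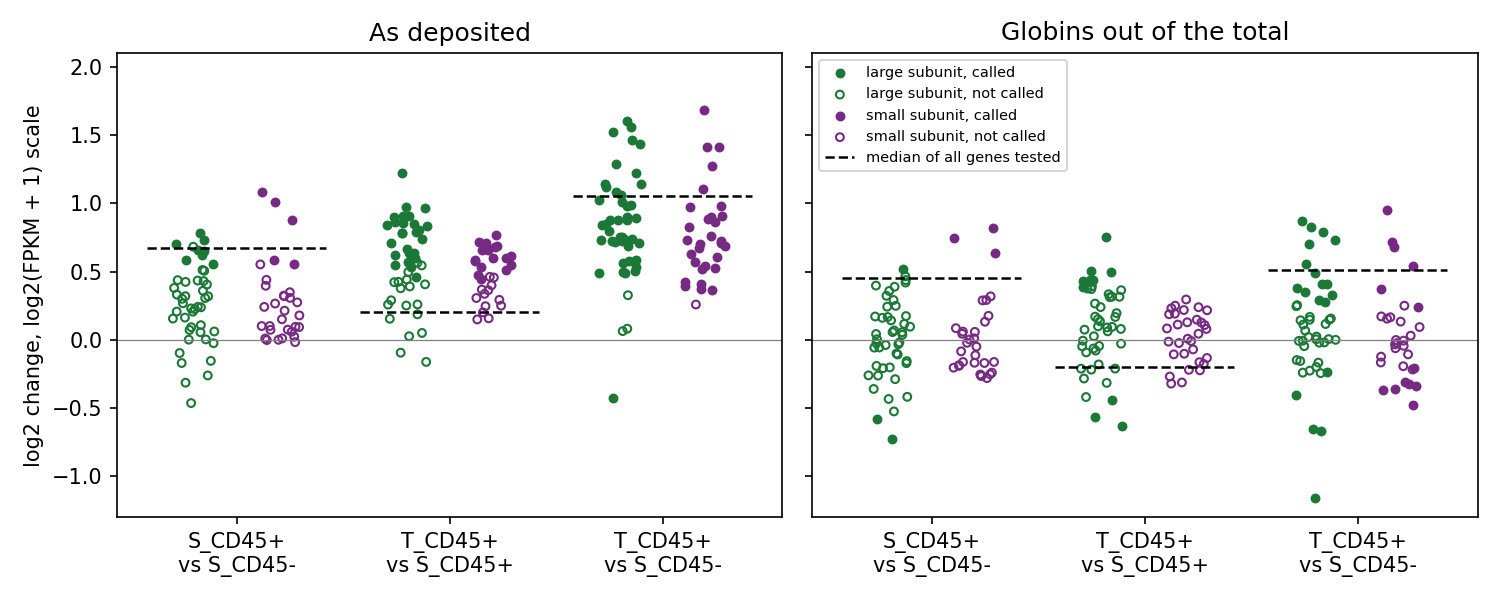
Log2 change of each of the 77 standard subunit genes in the 3 comparisons, as deposited (left) and with globins out of the total (right), on the log2(FPKM + 1) scale; filled points passed adjusted p below 0.05, and dashed lines are the median of all genes tested. The points lie mostly above 0 on the left and on both sides of 0 on the right, and Rplp0 is the lowest point of T_CD45+ against S_CD45-, at -0.42 on the left.

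Levels within the family do not depend on the total. Each gene was therefore also given as its FPKM per 1000 FPKM of all 90 genes, and the limma fit was repeated with every library scaled to the same ribosomal protein sum. On that scale 10 members rose and 2 fell in S_CD45+ against S_CD45- (background 41 and 7.96%), 12 rose and 9 fell in T_CD45+ against S_CD45+ (background 22.9 and 38.2%), and 25 rose and 13 fell in T_CD45+ against S_CD45- (background 52.2 and 32%). Most standard genes moved little: 54, 51 and 47 of the 77 were within 0.25 of 0 on the log2 scale in the 3 comparisons, and 70, 73 and 64 within 0.5. Of the 77, 35 passed the test in none of the 3 comparisons. The first 2 sets of calls rested on single libraries. Leaving out any S_CD45- replicate, or S_CD45+ replicate 1 or 3, gave 2 to 6 higher in the first, and 0 to 5 were lower over all libraries left out in turn. In the second, leaving out S_CD45+ replicate 3 or T_CD45+ replicate 2, 3 or 4 gave 4 to 7 higher, and without T_CD45+ replicate 3, 5 were lower. With T_CD45+ replicates 2 and 3 averaged the second gave 5 higher and 6 lower, and with replicates 2, 3 and 4 averaged 1 and 2. The third gave 23 higher and 11 lower, and 17 and 8, with the same libraries averaged.

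Of the 3 stalk proteins, which recruit the elongation factors to the large subunit, Rplp0 and Rplp1 fell within the family in T_CD45+ against S_CD45-. Rplp0, the base of the stalk (chr5:115559467-115563729, GRCm38.p6), was at 2500, 2199 and 2197 FPKM in S_CD45-, 1658, 2691 and 1574 in S_CD45+ and 1930, 1672, 1679 and 1586 in T_CD45+. Per 1000 FPKM of the family it was 20.0, 21.5 and 17.3 in S_CD45-, 12.8, 16.6 and 13.4 in S_CD45+ and 8.36, 8.98, 9.07 and 8.47 in T_CD45+. The 3 groups did not overlap on that scale. The log2 change relative to the family was -1.16 ± 0.10 (SE, limma adjusted p = 6.13e-07) in T_CD45+ against S_CD45- and -0.70 ± 0.13 (SE, limma adjusted p = 0.00196) in T_CD45+ against S_CD45+. In S_CD45+ against S_CD45- it was -0.46 and did not pass (limma adjusted p = 0.0562), but passed without S_CD45+ replicate 2, at -0.58. As deposited it was also the only member to fall in T_CD45+ against S_CD45-, by 0.42 on the log2 scale (limma adjusted p = 0.00649), but this turned to a rise of 0.22 with libraries scaled to a common sum and was lost with 1 fit over all libraries and with T_CD45+ replicates 2 to 4 averaged.

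Rplp1, which binds Rplp0 in pairs with Rplp2, was at 33.96, 28.4 and 30.1 per 1000 FPKM of the family in S_CD45-, 18.3, 20.2 and 19.7 in S_CD45+ and 22.2, 18.7, 18.7 and 18.4 in T_CD45+. Both CD45+ groups lay below S_CD45- and overlapped with each other. The log2 change relative to the family was -0.66 ± 0.15 (SE, limma adjusted p = 0.0105) in S_CD45+ against S_CD45-, a call lost without S_CD45- replicate 1, and -0.66 ± 0.10 (SE, limma adjusted p = 7.7e-05) in T_CD45+ against S_CD45-. Rplp2 was at 13.3 to 17.3, 15.2 to 18.5 and 11.9 to 13.8 per 1000 in the 3 groups, and its relative change of -0.35 in T_CD45+ against S_CD45+ (limma adjusted p = 0.0347) was lost without any single one of S_CD45+ replicate 1 or T_CD45+ replicates 1 to 4. Rpl41 followed Rplp1, with 44.9, 44.6 and 40.2 per 1000 in S_CD45-, 28.8, 32.5 and 29.5 in S_CD45+ and 29.2, 25.7, 26.2 and 27.0 in T_CD45+. Its relative log2 change was -0.68 ± 0.08 (SE, limma adjusted p = 1.36e-05) in T_CD45+ against S_CD45-. Against S_CD45- it was -0.52 in S_CD45+ (limma adjusted p = 0.0207), lost without S_CD45- replicate 1 or 2 or S_CD45+ replicate 1 or 3. Rpsa, the small subunit protein also known as the laminin receptor, was lower in T_CD45+ than in both splenic groups, with 7.25 to 8.20 per 1000 against 9.44 to 11.9 and 10.05 to 10.4. Its relative log2 changes were -0.48 (limma adjusted p = 0.00157) against S_CD45- and -0.38 (limma adjusted p = 0.0151) against S_CD45+.

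Other members rose within the family. Rps13 was at 4.00, 4.53 and 3.73 per 1000 in S_CD45-, 7.79, 6.71 and 6.97 in S_CD45+ and 6.01, 6.76, 6.66 and 6.53 in T_CD45+. Both CD45+ groups lay above S_CD45- and overlapped with each other. Its relative log2 change was 0.81 ± 0.16 (SE, limma adjusted p = 0.00744) in S_CD45+ and 0.67 ± 0.11 (SE, limma adjusted p = 0.000108) in T_CD45+, both against S_CD45-. These 2 comparisons share the S_CD45- libraries.

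The levels of Rpl10, Rpl38 and Rpl30 within the family were ordered S_CD45-, S_CD45+, T_CD45+. Rpl10 was at 9.27, 10.8 and 9.004 per 1000 in S_CD45-, 14.9, 13.1 and 13.1 in S_CD45+ and 16.3, 18.5, 18.6 and 17.0 in T_CD45+, with no overlap between the groups. Rpl38 was at 14.3, 14.8 and 14.9, then 19.9, 17.5 and 18.8, then 26.1, 26.3, 25.1 and 23.3, and Rpl30 at 10.5 to 13.0, 13.4 to 15.8 and 19.5 to 21.5, also without overlap. In S_CD45+ against S_CD45- the relative log2 change passed for Rpl10 (0.50, limma adjusted p = 0.0303) and not for Rpl38 (0.35, limma adjusted p = 0.0686) or Rpl30 (0.38, limma adjusted p = 0.0825). In T_CD45+ against S_CD45+ the relative log2 changes were 0.43 for Rpl38 (limma adjusted p = 0.00844), 0.43 for Rpl30 (limma adjusted p = 0.01) and 0.36 for Rpl10 (limma adjusted p = 0.0233). The last was lost without S_CD45+ replicate 3 or T_CD45+ replicate 2 or 3, and all 3 were lost with T_CD45+ replicates 2 to 4 averaged. Rpl37 differed in the tumor alone among these means, with 3.97 to 4.27 per 1000 in S_CD45-, 3.97 to 4.25 in S_CD45+ and 6.37 to 7.33 in T_CD45+, a relative log2 change of 0.68 ± 0.11 (SE, limma adjusted p = 0.00128) against S_CD45+.

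Some members had their extreme in S_CD45+. Rpl4 was at 6.57, 8.50 and 6.45 per 1000 in S_CD45-, 10.5, 10.8 and 10.6 in S_CD45+ and 5.42, 7.21, 7.35 and 7.67 in T_CD45+. S_CD45+ lay above both other groups, which overlapped. The relative log2 change was -0.63 ± 0.15 (SE, limma adjusted p = 0.0065) in T_CD45+ against S_CD45+, and 0.58 in S_CD45+ against S_CD45- (limma adjusted p = 0.0228), the latter lost without S_CD45- replicate 1 or 3 or S_CD45+ replicate 1 or 3. Rpl39 and Rpl31, 2 small proteins at the exit of the tunnel, had their lowest levels in S_CD45+. Rpl31 was at 7.32 to 8.94, 6.31 to 6.54 and 7.79 to 8.76 per 1000, and Rpl39 at 17.6 to 22.7, 14.8 to 15.5 and 17.9 to 21.4. In S_CD45+ against S_CD45- the relative log2 changes of -0.37 for Rpl39 and -0.36 for Rpl31 did not pass (limma adjusted p = 0.0818 and 0.0836). Each rose by 0.37 relative to the family in T_CD45+ against S_CD45+ (limma adjusted p = 0.0174 and 0.0176), and the call was lost without T_CD45+ replicate 2 for both, without replicate 3 for Rpl39 and without replicate 4 for Rpl31.

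**Figure D3:**
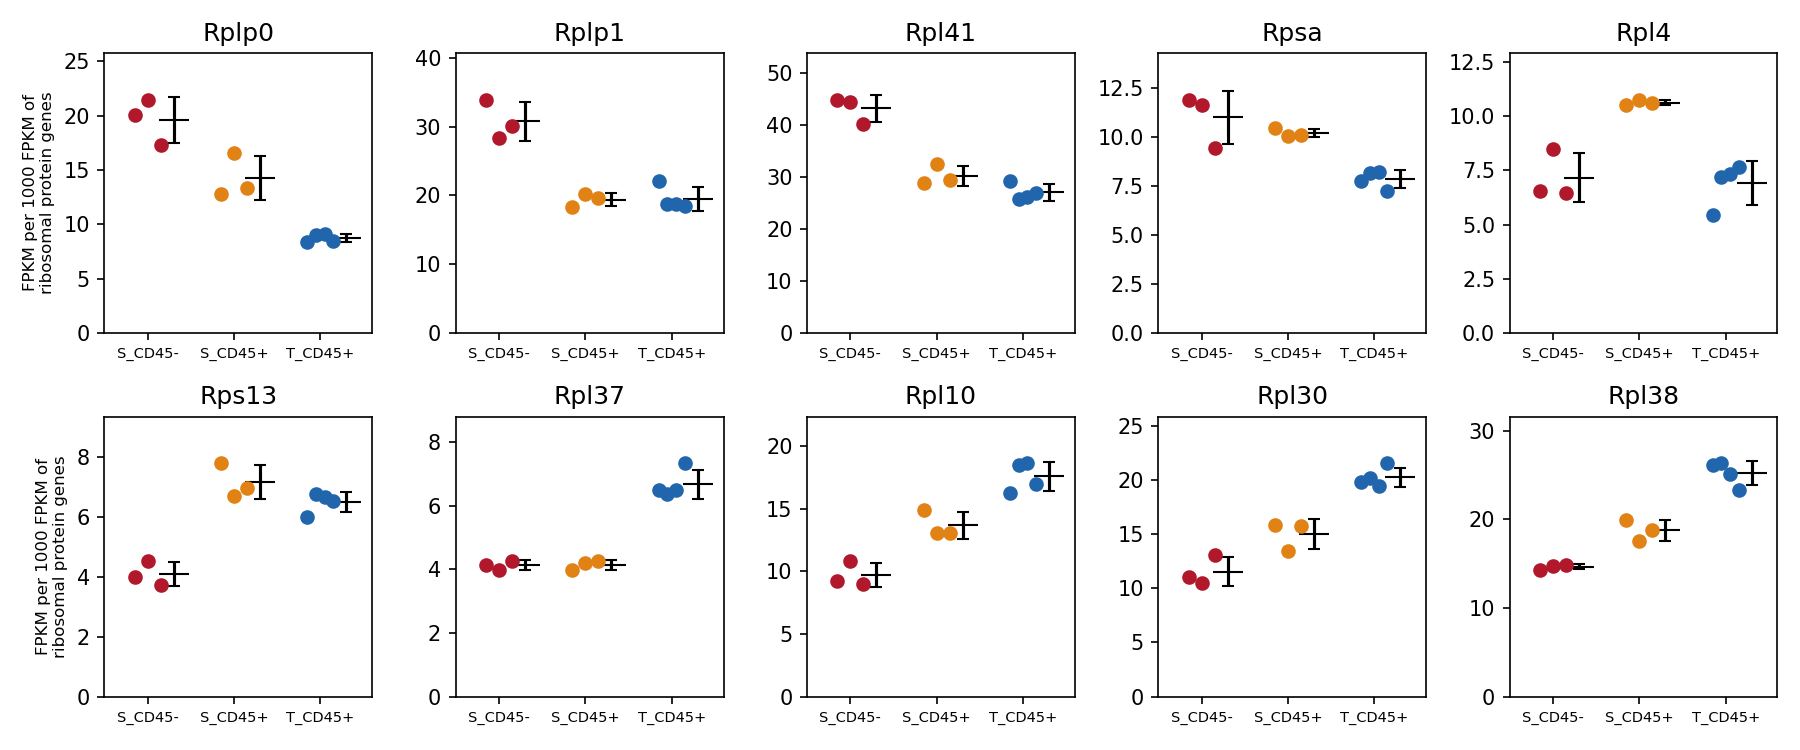
FPKM per 1000 FPKM of the 90 ribosomal protein genes for 10 members; points are libraries, bars are the group mean ± SD, and each axis starts at 0. Rplp0 steps down from means of 19.6 to 14.3 and 8.72 over the 3 groups, Rpl38 steps up from 14.7 to 18.7 and 25.2, and Rpl4 is highest in S_CD45+.

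Of the standard genes, 20 are tied to Diamond-Blackfan anemia. As deposited, 2, 15 and 20 of the 20 rose in the 3 comparisons and none fell, with median log2 changes of 0.12, 0.60 and 0.79, against 0.27, 0.54 and 0.73 for the other 57 standard genes. The background was 50.5, 37.7 and 67.5% higher and 5.01, 26 and 22.5% lower. Without globins in the total 0, 1 and 3 of the 20 rose and 0, 0 and 1 fell. The background was then 41.3, 26 and 54% higher and 9.14, 37.3 and 33.8% lower. Under trimmed-mean scaling 0, 1 and 0 of the 20 rose and 12, 0 and 10 fell. Of all 77 standard genes, 0, 11 and 1 rose and 31, 0 and 43 fell under it. The background of that scaling was 26.5, 34 and 46.7% higher and 24.3, 29.7 and 43.7% lower. Rps19, the gene most often mutated in the disease, was at 2358, 1859 and 2124 FPKM in S_CD45-, 2424, 2579 and 2038 in S_CD45+ and 4280, 3276, 3268 and 3256 in T_CD45+. The tumor libraries were above the splenic ones, which overlapped. Relative to the family its change was -0.05, 0.04 and -0.01 on the log2 scale in the 3 comparisons, none past the test. Rps26, another gene of the disease, fell within the family from S_CD45- (24.2 to 25.2 per 1000) to T_CD45+ (18.2 to 20.1 per 1000), with a log2 change of -0.37 (limma adjusted p = 0.00115). Rpl11 and Rpl5, which with a small ribosomal RNA bind Mdm2 when assembly fails, differed in pattern. Rpl11 rose within the family in T_CD45+ against S_CD45- by 0.40 on the log2 scale (limma adjusted p = 0.00818). Rpl5 rose in S_CD45+ against S_CD45- by 0.53 (limma adjusted p = 0.0322), which was lost without any single replicate other than S_CD45+ replicate 2.

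The large subunit genes were higher relative to the small in the tumor libraries. The ratio of summed FPKM, large over small, was 1.29, 1.27 and 1.29 in S_CD45-, 1.24, 1.30 and 1.24 in S_CD45+ and 1.35, 1.36, 1.36 and 1.34 in T_CD45+. The means were 1.28 ± 0.0093 (SD, n = 3), 1.26 ± 0.032 (SD, n = 3) and 1.35 ± 0.010 (SD, n = 4), and all 4 tumor libraries were above all 6 splenic ones. The same held for the standard genes alone, at 1.32 to 1.34 in the tumor against 1.22 to 1.27 in the spleen, and without the 5 highest genes of each subunit, at 1.39 to 1.40 against 1.27 to 1.34. It did not hold for the ratio of the subunits' median FPKM, with means of 0.631, 0.693 and 0.655, where the tumor libraries overlapped with the splenic ones. Relative to the family, the standard genes that rose in T_CD45+ against S_CD45+ were 11 of the large and 0 of the small subunit, and those that fell were 5 and 4 (background 22.9% higher and 38.2% lower). The difference between the subunits in these counts was not tested. With T_CD45+ replicates 2, 3 and 4 averaged 1 large and 0 small subunit genes rose, and with replicates 2 and 3 averaged 4 and 0. Without any single library 3 to 11 large and 0 to 1 small subunit genes rose. In T_CD45+ against S_CD45- 14 large and 6 small subunit genes rose and 5 and 8 fell.

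**Figure D4:**
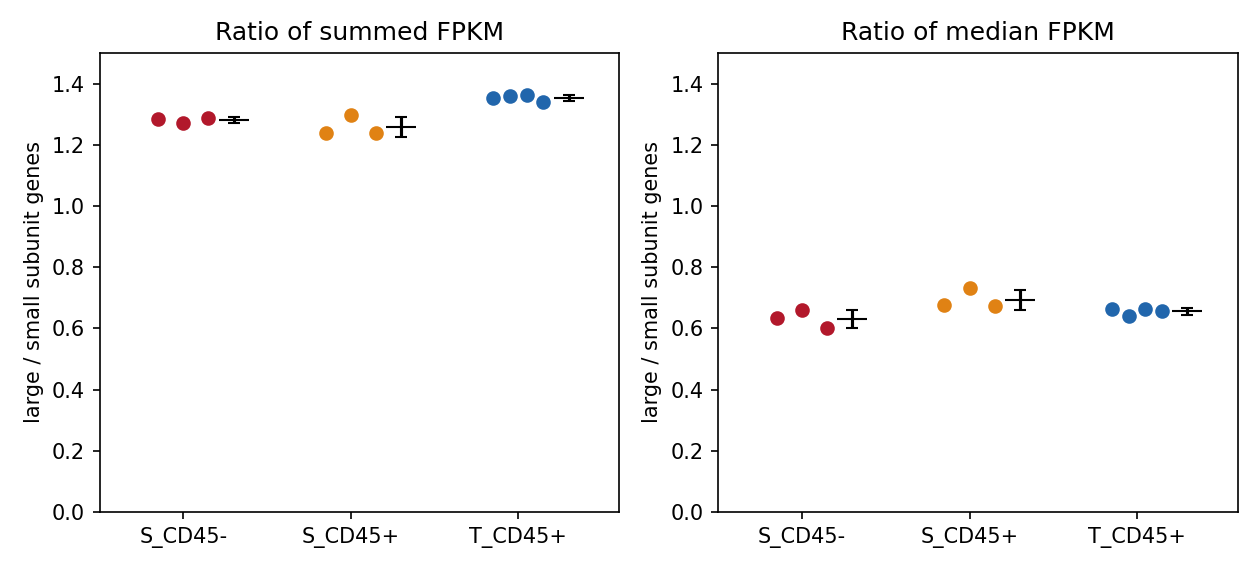
Ratio of large to small subunit genes in each library, from summed FPKM (left) and from median FPKM (right); points are libraries, and bars are the group mean ± SD. By sums the 4 tumor libraries sit at 1.34 to 1.36, above the splenic range of 1.24 to 1.30, while by medians the groups overlap.

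Of the 13 names outside the standard set, 9 passed the filter on low values in each comparison. Rpl22l1 and Rps27l, expressed paralogs of Rpl22 and Rps27, differed in level from their partners. Rpl22l1 was at 666 to 892 FPKM in S_CD45-, 568 to 954 in S_CD45+ and 1026 to 1446 in T_CD45+, above Rpl22 in every library. Rps27l was at 278 to 423, 220 to 578 and 638 to 747 FPKM, below Rps27 at 2760 to 3404, 3290 to 4374 and 3399 to 5664 FPKM. Replicate 2 of S_CD45+ was the highest of its group for both paralogs. Without it Rps27l rose by 0.90 within the family in T_CD45+ against S_CD45+, where with all libraries its change of 0.60 did not pass (limma adjusted p = 0.065). Rpl3l, the paralog of heart and skeletal muscle, was at most 0.51 FPKM in every library, and Rpl39l, known from testis and some tumors, reached 0.62 to 1.92 FPKM in T_CD45+ against at most 0.21 FPKM in the spleen.

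Rps19bp1, which binds Rps19 and the deacetylase Sirt1, rose most among the names of the rule in T_CD45+ against S_CD45-. It was at 9.65, 8.45 and 8.76 FPKM in S_CD45-, 10.3, 18.3 and 12.6 in S_CD45+ and 35.7, 30.9, 30.2 and 29.7 in T_CD45+, with no overlap between tumor and spleen. Its log2 change was 1.71 ± 0.09 (SE, limma adjusted p = 1.01e-07) against S_CD45- and 1.18 ± 0.20 (SE, limma adjusted p = 0.00142) against S_CD45+. Fau and Rack1, which the rule leaves out, also encode subunit proteins. Fau, which makes the small subunit protein eS30 fused to a ubiquitin-like protein, was at 1380 to 1765, 1888 to 2337 and 2927 to 4323 FPKM in the 3 groups. Rack1, a scaffold on the small subunit, was at 1005 to 1349, 1098 to 1588 and 1593 to 2003 FPKM. In T_CD45+ against S_CD45- the log2 change was 1.15 for Fau (limma adjusted p = 0.00012) and 0.58 for Rack1 (limma adjusted p = 0.00307). With globins out of the total these were 0.42 and -0.15, the latter not past the test (limma adjusted p = 0.215).

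As deposited, most of the genes that build the ribosome were higher in CD45+ than in CD45- splenic cells. In S_CD45+ against S_CD45-, where 14 of 86 ribosomal protein genes rose, 25 of 31 genes of small subunit assembly, 28 of 31 of large subunit assembly, 11 of 14 of the RNA polymerase I system and 9 of 11 of the small nucleolar RNA-protein particles rose, and none fell (limma, background 50.5% higher). The median log2 changes were 1.51, 1.52, 1.37 and 1.27. The last list also includes Npm1, a nucleolar chaperone. With globins out of the total the medians were 1.32, 1.34, 1.24 and 1.01, and under trimmed-mean scaling 0.72, 0.69, 0.64 and 0.35, while the ribosomal protein median was 0.00 and -0.67. The counts were lower under trimmed-mean scaling (background 26.5% higher and 24.3% lower), with 15 higher and 1 lower for small subunit assembly, 13 and 2 for large subunit assembly, 5 and 0 for RNA polymerase I and 1 and 0 for the nucleolar particles. Named by the largest change of each list were Rrs1, needed for the large subunit (1.89 to 12.3 FPKM on average, log2 change 2.17, limma adjusted p = 0.00085), Tsr1, an export and assembly factor of the small subunit (2.36 to 14.1 FPKM, 2.16, limma adjusted p = 0.00104), and Npm1, the abundant nucleolar chaperone (103 to 387 FPKM, 1.94, limma adjusted p = 0.00143). Myc, a driver of ribosome synthesis, was at 2.78 ± 0.374 FPKM (SD, n = 3) in S_CD45- and 34.1 ± 16.6 FPKM (SD, n = 3) in S_CD45+, a log2 change of 3.10 (limma adjusted p = 0.00104). Of 27 initiation factor genes, 6 rose, and their median was 0.48 as deposited, 0.22 without globins and -0.44 under trimmed-mean scaling.

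Per 1000 FPKM of ribosomal proteins, the large subunit assembly genes summed to 2.35 ± 0.331 (SD, n = 3) in S_CD45-, 4.80 ± 0.552 (SD, n = 3) in S_CD45+ and 4.42 ± 0.655 (SD, n = 4) in T_CD45+. The nucleolar particle genes summed to 3.42 ± 0.511 (SD, n = 3), 7.46 ± 0.985 (SD, n = 3) and 6.62 ± 1.19 (SD, n = 4). The chaperone Npm1 in this list made up 103, 387 and 574 of mean list sums of 400, 1031 and 1287 FPKM. For both lists the S_CD45- libraries were below all CD45+ libraries. The small subunit assembly and RNA polymerase I lists were below all S_CD45+ libraries in S_CD45- but overlapped with T_CD45+. For these, S_CD45- replicate 2 was at 2.47 and 1.65 per 1000, above T_CD45+ replicate 1 at 2.24 and 1.60. The mitochondrial ribosomal protein genes, which serve the separate ribosome of the organelle, summed to 20.8 ± 1.37 (SD, n = 3), 21.1 ± 3.49 (SD, n = 3) and 23.9 ± 0.932 (SD, n = 4) per 1000. Of the 78 mitochondrial genes, 23 rose in S_CD45+ against S_CD45-, 43 rose and 1 fell in T_CD45+ against S_CD45+, and 64 rose and 7 fell in T_CD45+ against S_CD45-. The background of these was 50.5% higher and 5.01% lower, 37.7 and 26%, and 67.5 and 22.5%. The counts without globins in the total were 15 higher and 3 lower, 17 and 4, and 40 and 14, and under trimmed-mean scaling 2 and 16, 28 and 1, and 23 and 36.

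Between the CD45+ populations, the direction of the assembly genes followed the scaling. In T_CD45+ against S_CD45+, 6 of 31 small subunit assembly genes rose and 1 fell, and 10 of 31 large subunit assembly genes rose and 1 fell, with medians of 0.10 and 0.30 (background 37.7% higher and 26% lower). Leaving globins out of the total, 3 rose and 9 fell, and 2 rose and 6 fell, with medians of -0.31 and -0.15 (background 26% higher and 37.3% lower). Pno1, a small subunit assembly factor, rose from 22.2 to 56.4 FPKM (log2 change 1.33, limma adjusted p = 0.000357), and Dkc1, the pseudouridine synthase of the nucleolar particles, fell from 41.4 to 14.8 FPKM (-1.31, limma adjusted p = 0.0103). Among the regulators, 2 of 12 rose and 5 fell as deposited, and 1 and 8 with globins out of the total. Eif4ebp1, the repressor of cap-dependent initiation that TOR inactivates, rose from 31.3 ± 10.2 FPKM (SD, n = 3) to 163 ± 28.3 FPKM (SD, n = 4), a log2 change of 2.38 (limma adjusted p = 7.83e-05). Larp1b, a relative of Larp1, fell from 23.9 ± 6.60 FPKM (SD, n = 3) to 4.53 ± 0.148 FPKM (SD, n = 4), a log2 change of -2.14 (limma adjusted p = 4.68e-05). In a separate list of 18 genes of ribosome rescue and stalling, 2 rose and 6 fell as deposited. With globins out of the total none of them rose and 13 fell. Eef2k of that list, the kinase that slows elongation, fell from 20.9 ± 8.34 FPKM (SD, n = 3) to 2.75 ± 0.326 FPKM (SD, n = 4), a log2 change of -2.47 (limma adjusted p = 0.000111).

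Of 9 elongation factor and related genes whose messages carry the same 5′ tract, 7 rose and 1 fell in T_CD45+ against S_CD45-, near the background of 67.5% higher and 22.5% lower. When globins were left out of the total 4 rose and 2 fell, and under trimmed-mean scaling none rose and 6 fell. Eef1a1, which delivers aminoacyl-tRNA, rose from 2049 ± 6.60 FPKM (SD, n = 3) to 5875 ± 424 FPKM (SD, n = 4), a log2 change of 1.52 (limma adjusted p = 1.17e-06). Pabpc1, the poly(A)-binding protein, fell from 838 ± 49.0 FPKM (SD, n = 3) to 416 ± 71.0 FPKM (SD, n = 4), a log2 change of -1.03 (limma adjusted p = 0.00014). With globins out of the total the changes were 0.78 and -1.76, in the same directions.

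**Figure D5:**
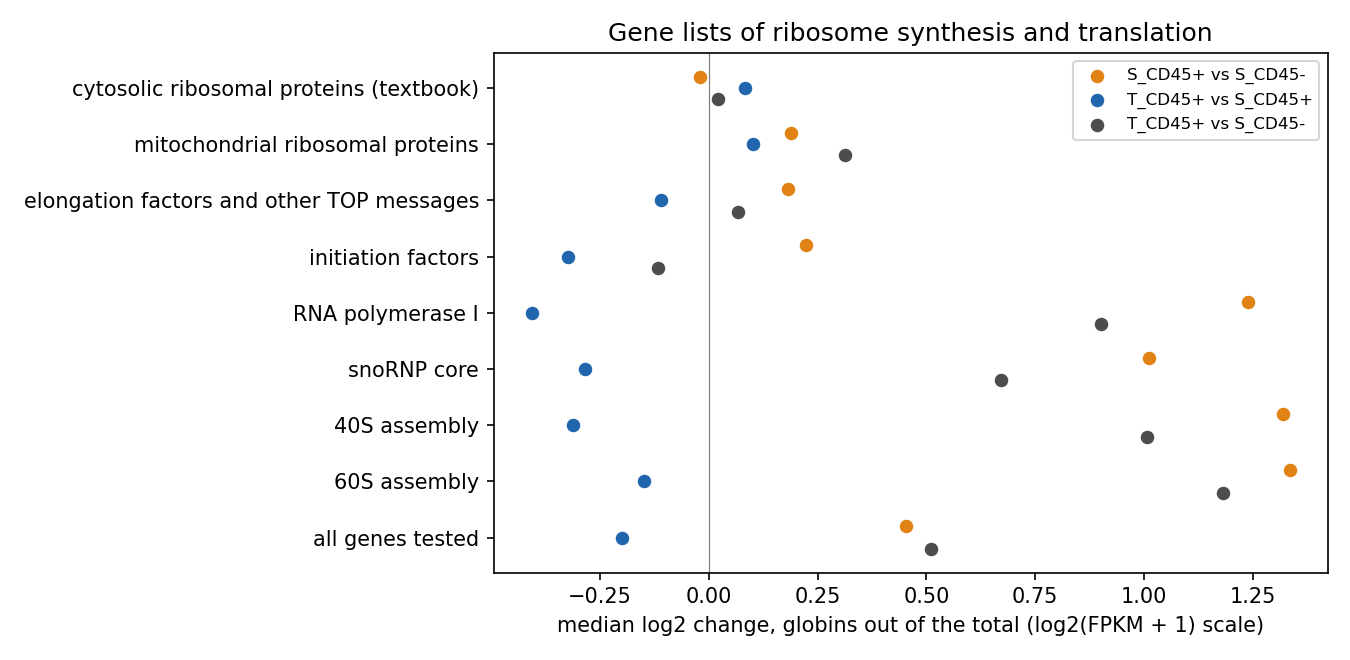
Median log2 change of the standard ribosomal protein genes and of fixed gene lists in the 3 comparisons, with globins out of the total, on the log2(FPKM + 1) scale; each point is a list median. The assembly, nucleolar particle and RNA polymerase I lists lie at 1.01 to 1.34 in S_CD45+ against S_CD45-, while the ribosomal proteins lie near 0 in all comparisons.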

How the data were processed

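The deposited files give 1 value per RefSeq transcript model and library. Each was read as FPKM that the authors computed: values differ in their sum between libraries. Over the models of known length, the values weighted by length sum to 971633 to 1174331. Per the submitters' processing notes the reads were placed on GRCm38.p6. RNA was extracted with TRIZOL and libraries were made by BGI, a sequencing company, per the labels' protocols. For the aligner, the counter and the annotation, the sources used here give no name. Of 61685 models, 60177 matched a symbol in RefSeq, and values were summed per gene. Depth was read from the steps of low values of genes with 1 model of 400 to 1200 bases.

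A gene was tested where 3 or more of the libraries compared reached 1 FPKM. The test was limma (version 3.58.1, R version 4.3.3) with a variance trend, on log2(FPKM + 1) and on the 2 groups compared only, with Benjamini-Hochberg adjustment over all genes tested. Fold changes on this scale understate the change of low genes. The fit was repeated with globin genes out of the total, and with each library scaled to the same ribosomal protein sum (relative to the family). Named genes were a fixed list of symbols, the 5 called members of largest change in each direction on either scale, and the called gene of largest change of each pathway list. Some genes that this rule names are not reported here. The members and lists were chosen with earlier results of these data known. Pathway and marker lists come from general knowledge. Alternatives covered the scaling, pseudocount, filter, variance trend, shared fit, replicate block and each library left out. Scripts were tested on simulated data.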

Additional observations from a re-analysis of the deposited data

Results flagged for a closer look

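Of 42 values tested for a library apart from its group, 5 were flagged, all in T_CD45+, the one group with more than 3 libraries, because the gap of 1 library to the nearest of the others was most of the group's range. Chance flags about 1 in 20 groups. Replicate 1 was the high library in all 5: the ribosomal protein share without globins (26.7%), Rpl41 (6756 FPKM), Rplp1 (5123 FPKM), Rps19 (4280 FPKM) and Rps25 (2458 FPKM). It is also the tumor library with 10.4% of its summed FPKM in globins.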

How the results depend on the processing

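Counts of members called depended on how the libraries were scaled. In S_CD45+ against S_CD45-, 14 higher and 0 lower became 5 and 2 without globins in the total, 27 higher with a common sum, and 0 higher with 32 or 49 lower under trimmed-mean or median-ratio scaling. In T_CD45+ against S_CD45+, 54 and 0 became 8 and 3 without globins, and 13 or 23 higher under trimmed-mean or median-ratio scaling. In T_CD45+ against S_CD45-, 80 and 1 became 24 and 12 without globins, 3 and 44 under trimmed-mean scaling, 6 and 30 under median-ratio scaling, and 0 lower with a common sum or 1 fit over all libraries. No filter on low values gave 8 higher in the first comparison and 1 lower in the second, and 1 fit over all libraries gave 25 higher in the first. Trimmed-mean and median-ratio scaling turned Rpl4 to -0.16 and -0.15 and Rps6 to -0.0064 and -0.0058 in S_CD45+ against S_CD45-, and a common sum turned Rplp0 to 0.22 in T_CD45+ against S_CD45-. These follow from the scaling itself, and relative to the family no named gene changed direction under the alternatives run.

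Leaving out 1 library at a time gave, as deposited, 4 to 14 higher and 0 to 5 lower in S_CD45+ against S_CD45-, 26 to 73 higher in T_CD45+ against S_CD45+, and 69 to 81 higher in T_CD45+ against S_CD45-. Relative to the family it gave 2 to 12 higher and 0 to 5 lower, 4 to 16 higher and 5 to 13 lower, and 21 to 27 higher and 11 to 16 lower in the same order. With T_CD45+ replicates 2, 3 and 4 averaged, chosen after seeing the data, T_CD45+ against S_CD45+ gave 11 higher, and 1 higher and 2 lower relative to the family, and T_CD45+ against S_CD45- gave 0 lower, and 8 lower relative to the family. With replicates 2 and 3 averaged, 5 were higher relative to the family in T_CD45+ against S_CD45+. A lone or averaged sample is assumed to vary like the others.

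Whether the replicate numbers pair the samples is not known. Deviations from the group means of same-numbered libraries correlated at 0.12, 0.085 and -0.015 between the splenic groups. The values were -0.18, -0.10 and -0.043 between S_CD45+ and T_CD45+, and 0.24, 0.095 and -0.023 between S_CD45- and T_CD45+. With so few libraries, such weak correlations cannot decide whether same-numbered libraries belong together. With a replicate block, 6 were higher in S_CD45+ against S_CD45-, 12 in T_CD45+ against S_CD45+ and 79 higher and 1 lower in T_CD45+ against S_CD45-. Of all genes tested, 4444 of 9728, 3422 of 11463 and 7557 of 11208 were then higher, and 407, 2263 and 2572 lower. Relative to the family the block gave 6 higher and 1 lower, 1 higher and 3 lower, and 22 higher and 10 lower.

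The ribosomal protein share was 24.2, 23.2 and 24.3% in S_CD45-, S_CD45+ and T_CD45+ without globins, and in T_CD45+ 22.9% for the standard genes alone and 12.8% as a share of fragments. The large to small ratio was 0.631, 0.693 and 0.655 by medians, 1.26 in S_CD45- and 1.33 in T_CD45+ for the standard genes alone, and 1.30, 1.32 and 1.40 without the 5 highest genes of each subunit. The depth limits the rare copies, such as Rpl39l and Rpl3l, and not the standard genes.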
